A study of Macaca mulatta with 4 samples.

Results

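A set of 10 genes of the blood-brain barrier was followed in prefrontal cortex of infant rhesus macaques (Macaca mulatta). The genes were chosen by symbol and known role, and every listed symbol was found among the 33618 genes of the count table. They comprise the tight junction genes CLDN5, OCLN and TJP1, the transport genes MFSD2A, SLC2A1, ABCB1 and ABCG2, and the endothelial genes PECAM1, CDH5 and TEK. RNA-seq libraries came from sevoflurane-exposed cortex (replicates 2 and 3) and from control cortex (replicates 2 and 3), all from animals labelled wild type. Per the labels' protocols, the inhaled anaesthetic sevoflurane was given at about 2.5 to 3% for 4 hours on each of 3 occasions, the first near postnatal day 7 and the others 14 and 28 days later, and tissue was taken right after the last exposure. The control libraries carry the agent label "none", with no word on the handling of those animals in the labels. The labels do not tie the replicates of a group to separate animals, so the spread behind each p-value is that between these libraries and may be technical.

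Capillary endothelial cells of the brain are sealed to each other by tight junctions, in which claudins and occludin span the membrane and zonula occludens proteins anchor them to the actin cytoskeleton. Because little passes between the cells, nutrients cross by dedicated carriers, and ATP-driven pumps return many drugs and metabolites to the blood. Adherens junctions built on VE-cadherin and the angiopoietin receptor TIE2, the product of TEK, help to keep the vessel wall quiescent.

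Total counts were 11703857 and 11706115 in sevoflurane replicates 2 and 3, and 10059944 and 7793757 in control replicates 2 and 3. Control replicate 3, which had the fewest reads, was separated from the other 3 libraries along principal component 1. The values were raw counts, scaled with TMM factors (a trimmed mean over genes) to CPM, reads per gene at a common library size, and group differences were fitted with edgeR's quasi-likelihood test over 17693 genes. Calls were made where the p-value, adjusted by Benjamini and Hochberg over every tested gene, was below 0.05. Every member passed the filter on low counts, with 80 to 3511 counts per library. CPM is not corrected for transcript length, so levels are set side by side within a gene and not between genes. In bulk tissue, fewer endothelial cells and less RNA per cell cannot be told apart.

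None of the 10 barrier genes was called higher or lower after sevoflurane, and their fitted log2 fold changes lay between -0.72 (ABCG2) and 0.23 (SLC2A1). Junction transcripts and PECAM1 overlapped between the groups. ABCG2, MFSD2A, TEK, ABCB1 and CDH5 lay below control in both sevoflurane libraries, and SLC2A1 lay above. The count of calls was 0 of 10 by edgeR's quasi-likelihood test, by DESeq2 and by limma-voom, where edgeR called 0.599% of all genes tested, that is 106 genes, of which 11 were higher (0.0622% of those tested) and 95 lower (0.537%). At an unadjusted p under 0.05 there was 1 member, ABCG2, against 9.92% of all genes. The groups did not overlap in 6 of 10 members, 1 above and 5 below, where 41.2% of all genes did so, 20.8% above and 20.4% below. The median log2 fold change of the members was -0.10 and that of all tested genes -0.0021. Their median size without sign was 0.19, against 0.21 over all genes. With 2 libraries against 2, an exact permutation test of a single value cannot give a two-sided p below 0.333, so levels are described and tests are taken only from the fit across all genes.

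**Figure D1:**
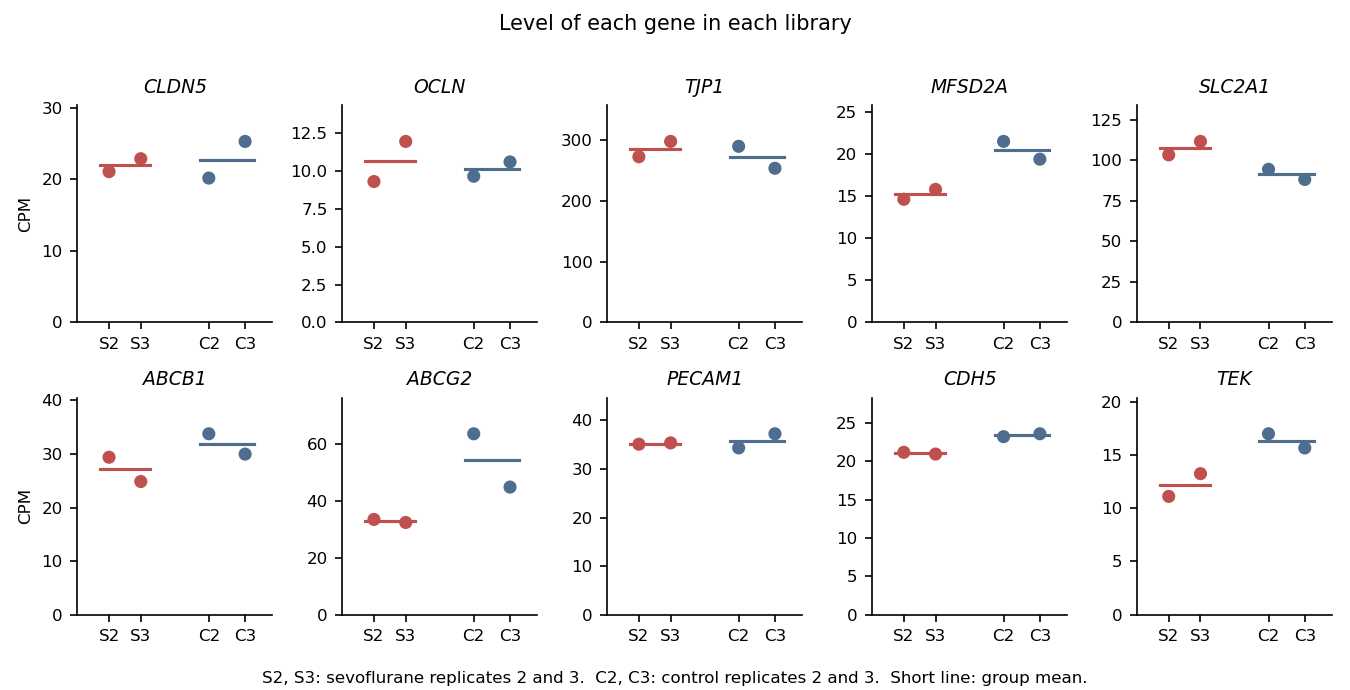
CPM of each of the 10 genes (vertical axes, from 0) in each library (horizontal axes), with sevoflurane replicates in red, control replicates in blue and short lines at group means of 2 libraries. ABCG2, MFSD2A, TEK, ABCB1 and CDH5 lie below control in both sevoflurane libraries, SLC2A1 lies above, and the other 4 genes overlap.

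The tight junction genes overlapped between the groups. CLDN5 encodes claudin-5, the main sealing claudin of brain endothelium, and had 21.1 and 22.9 CPM in sevoflurane replicates 2 and 3, against 20.2 and 25.3 CPM in control replicates 2 and 3. The control libraries were the lowest and the highest of the 4, so the sevoflurane values lay inside the control range. The fitted log2 fold change of CLDN5 was -0.04 (SE 0.20, 95% interval -0.50 to 0.41, adjusted p = 0.966), an interval from 0.706-fold to 1.33-fold. Its sign depended on the library set, with 0.12 without control replicate 3 and 0.01 without sevoflurane replicate 2.

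OCLN, encoding occludin, had 9.31 and 11.96 CPM in sevoflurane replicates 2 and 3, against 9.66 and 10.6 CPM in control replicates 2 and 3. Here the sevoflurane libraries were the lowest and the highest. OCLN was the member with the fewest reads, and its smallest count of 80, in control replicate 3, has an exact Poisson 95% interval of 63.4 to 99.6, which covers counting error only. The log2 fold change was 0.07 (SE 0.26, 95% interval -0.52 to 0.66, adjusted p = 0.96), the widest interval among the members, and it was -0.12 without sevoflurane replicate 3.

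TJP1 encodes the scaffold protein zonula occludens 1, which is also present in many cells outside the vessel wall. It had 272.6 and 297.9 CPM in sevoflurane replicates 2 and 3, against 289.8 and 253.7 CPM in control replicates 2 and 3. The groups interleaved, and the highest value was in sevoflurane replicate 3. With the largest counts of the members, TJP1 had the narrowest interval, -0.21 to 0.35, around an estimate of 0.07 on the log2 scale (SE 0.13, adjusted p = 0.921). Without control replicate 3 the value was -0.02.

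The transport genes did not lie on one side. ABCG2 encodes breast cancer resistance protein, an efflux pump on the blood-facing membrane. It had 33.6 and 32.5 CPM in sevoflurane replicates 2 and 3, against 63.7 and 45.0 CPM in control replicates 2 and 3. The sevoflurane libraries were nearly equal and below both controls, and the controls differed from each other by a factor of 1.42, the largest gap within a group among the members. ABCG2 averaged 33.0 ± 0.763 CPM after sevoflurane and 54.3 ± 13.3 CPM in controls (SD, n = 2 each), for a fitted log2 fold change of -0.72 with SE 0.19 (95% interval -1.16 to -0.28, adjusted p = 0.202 by edgeR's quasi-likelihood test). It ranked 401 by p among all genes tested and was not called.

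The size of the ABCG2 difference rested on which control library was used. Without control replicate 3 the log2 fold change was -0.95, and without control replicate 2 it was -0.45. Without sevoflurane replicate 2 or 3 it was -0.74 or -0.70. Leaving out a library leaves a single library in its group, whose spread then cannot be measured. Only fold changes are therefore given for such fits. By DESeq2 the adjusted p was 0.0835 and by limma-voom 0.203. By edgeR's likelihood ratio test, which does not carry the uncertainty of the dispersion, the adjusted p was 0.0432 and ABCG2 was called lower. That test called 441 of all 17693 genes, against 106 by the quasi-likelihood test.

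ABCB1, encoding the efflux pump P-glycoprotein, had 29.4 and 24.9 CPM in sevoflurane replicates 2 and 3, against 33.8 and 30.0 CPM in control replicates 2 and 3. Sevoflurane replicate 2 and control replicate 3 were close, at 29.4 and 30.0 CPM, although the groups did not overlap. The log2 fold change was -0.23 (SE 0.18, 95% interval -0.65 to 0.18, adjusted p = 0.757). Leaving out sevoflurane replicate 3 gave -0.12, control replicate 2 gave -0.15 and sevoflurane replicate 2 gave -0.36.

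MFSD2A carries lysophosphatidylcholine with docosahexaenoic acid into the brain, and in mice it restrains vesicle traffic across the endothelium. It had 14.6 and 15.8 CPM in sevoflurane replicates 2 and 3, against 21.5 and 19.4 CPM in control replicates 2 and 3. Replicates lay within a factor of 1.08 after sevoflurane and 1.11 in controls. The 146 counts of control replicate 3 have an exact Poisson 95% interval of 123.3 to 171.7, so counting error alone could give such gaps. The log2 fold change was -0.43 (SE 0.21, 95% interval -0.89 to 0.04, adjusted p = 0.56), and it lay between -0.50 and -0.35 when each library was left out in turn.

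SLC2A1 encodes GLUT1, the glucose carrier of brain endothelium, which glia also express. It had 103.4 and 111.7 CPM in sevoflurane replicates 2 and 3, against 94.5 and 88.2 CPM in control replicates 2 and 3. It was the one member with both sevoflurane libraries above both controls. The log2 fold change was 0.23 (SE 0.13, 95% interval -0.07 to 0.54, adjusted p = 0.636), whose upper end is a 1.45-fold difference.

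**Figure D2:**
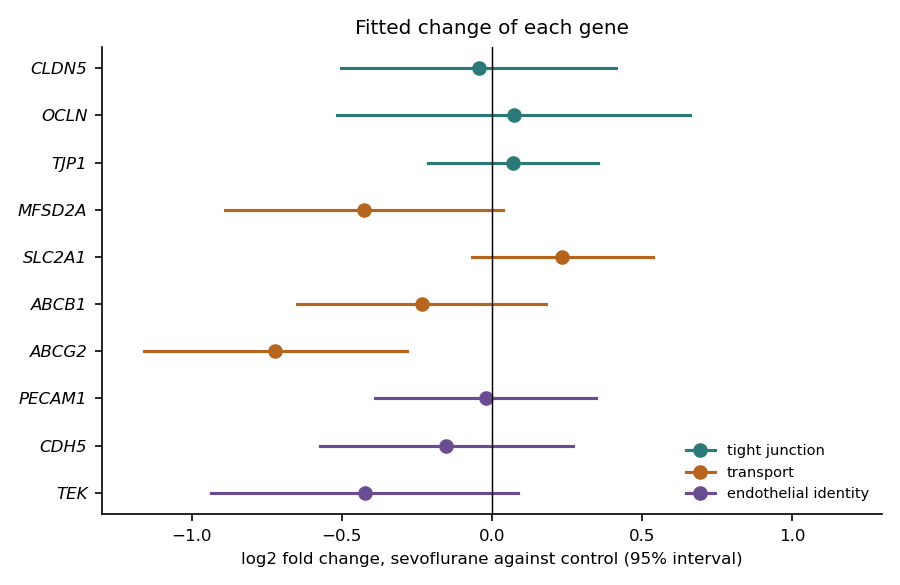
Fitted log2 fold change of each gene, sevoflurane against control (horizontal axis), with points at the estimate and lines spanning the 95% interval of edgeR's quasi-likelihood fit to 2 libraries per group; colours mark the role. The interval of ABCG2 runs from -1.16 to -0.28 before correction over 17693 genes, and those of the other 9 genes include 0.

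Among the endothelial identity genes, PECAM1 encodes the adhesion molecule CD31, which platelets and leukocytes carry as well. It had 35.1 and 35.4 CPM in sevoflurane replicates 2 and 3, against 34.3 and 37.3 CPM in control replicates 2 and 3. The sevoflurane values lay between the controls, and the 95% interval of the log2 fold change ran from -0.39 to 0.35 around -0.02 (SE 0.16, adjusted p = 0.981). Without control replicate 3 the value was 0.04.

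CDH5, encoding VE-cadherin of the endothelial adherens junction, had 21.2 and 21.0 CPM in sevoflurane replicates 2 and 3, against 23.2 and 23.6 CPM in control replicates 2 and 3. The replicates lay within a factor of 1.01 after sevoflurane and 1.02 in controls, and the groups did not overlap. Counting error alone is wider than these gaps. The 178 counts of control replicate 3 have an exact Poisson 95% interval of 152.8 to 206.2. The log2 fold change was small, -0.15 (SE 0.19, 95% interval -0.57 to 0.27, adjusted p = 0.865).

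TEK had 11.1 and 13.2 CPM in sevoflurane replicates 2 and 3, against 17.0 and 15.6 CPM in control replicates 2 and 3. Both sevoflurane libraries lay below both controls, and the log2 fold change was -0.42 (SE 0.23, 95% interval -0.93 to 0.09, adjusted p = 0.612). Leaving out sevoflurane replicate 2 gave -0.30, and leaving out sevoflurane replicate 3 gave -0.55.

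Each member was also divided by the summed CPM of 25 other endothelial identity genes in the same library, a value that does not depend on the scaling between libraries. That sum was 646.2 and 644.5 CPM in sevoflurane replicates 2 and 3, against 685.0 and 645.4 CPM in control replicates 2 and 3. The sums of the groups overlapped. PODXL and PTPRB, which add most to the sum, stood on opposite sides of control, so near-equal sums do not show each gene unchanged. Neurons also express PODXL, so the sum does not measure endothelium alone. Of the 25 genes, 10 had positive and 15 negative log2 fold changes. Both sevoflurane libraries lay below both controls for 6 of them and above for 1, against 20.4% and 20.8% of all genes. Per 100 units of the sum, ABCG2 stood at 5.20 and 5.04 in sevoflurane libraries and at 9.30 and 6.97 in control libraries. MFSD2A stood at 2.26 and 2.45 after sevoflurane and at 3.13 and 3.00 in controls, and TEK at 1.72 and 2.05 after sevoflurane and at 2.48 and 2.42 in controls. SLC2A1 stood at 16.0 and 17.3 after sevoflurane and at 13.8 and 13.7 in controls. These 4 genes, ABCB1 and CDH5 kept groups that did not overlap, and the 3 junction genes and PECAM1 overlapped on this scale too. The median log2 difference over the members was -0.05, with 5 positive and 5 negative.

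**Figure D3:**
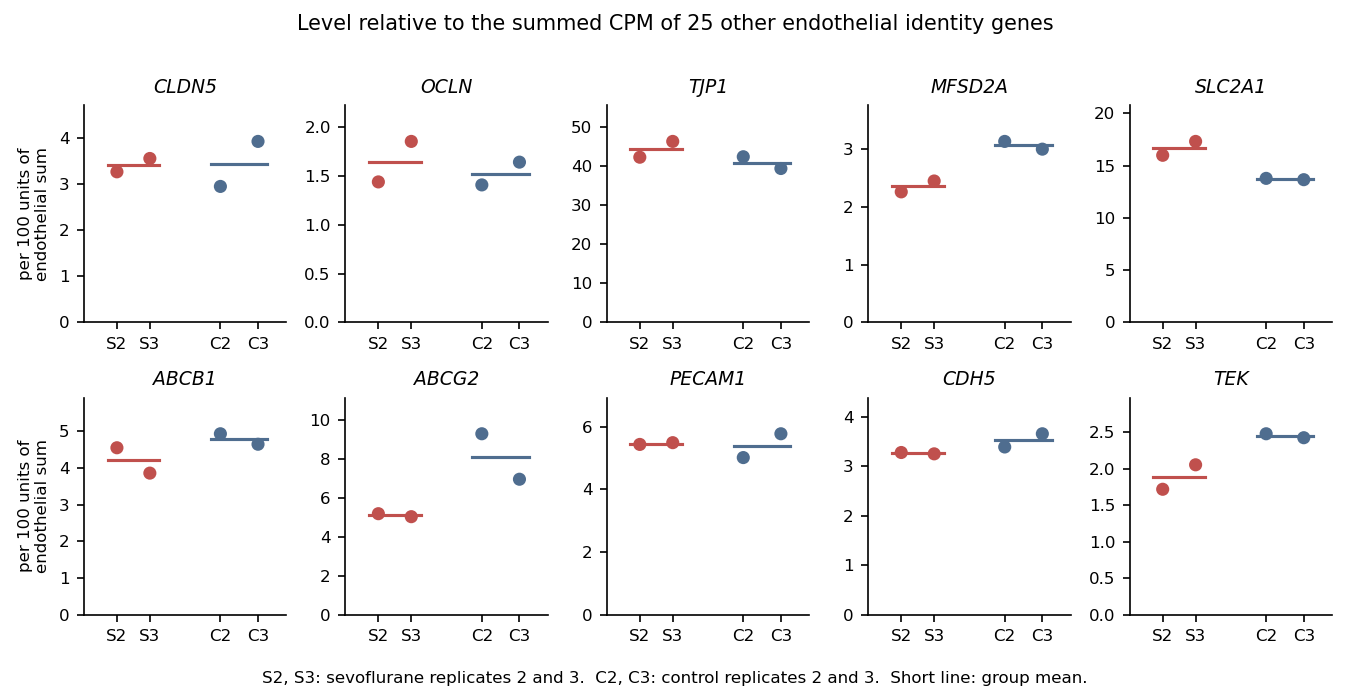
Level of each gene per 100 units of the summed CPM of 25 other endothelial identity genes (vertical axes, from 0) in each library, with sevoflurane in red, control in blue and short lines at group means of 2 libraries. ABCG2 lies at 5.20 and 5.04 after sevoflurane and at 9.30 and 6.97 in controls, and SLC2A1 is the one gene with both sevoflurane libraries above both controls.

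The wider barrier and vascular genes were read from 9 lists with 105 genes chosen for known roles, of which 101 were tested. None was called by edgeR's quasi-likelihood test, by DESeq2 or by limma-voom, and 1 was called by edgeR's likelihood ratio test, SLC22A8, to which DESeq2 gave no adjusted p. That likelihood ratio test called 441 of all 17693 genes tested. At an unadjusted p under 0.05 there were 14 of 101 (13.9%), against 9.92% of all genes tested. The groups did not overlap in 46 (45.5%), against 41.2% of all genes, and the median log2 fold change was -0.03.

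Of 15 other junction and scaffold genes, 0 were called, 3 had an unadjusted p under 0.05, 6 had positive and 9 negative values, and the median log2 fold change was -0.22. Both sevoflurane libraries lay below both controls for 7 of the 15 and above for 3, against 20.4% and 20.8% of all genes. LSR, encoding angulin-1 of tricellular junctions, had 4.96 and 5.43 CPM after sevoflurane, against 7.12 and 12.6 CPM in controls (-0.91, SE 0.35, adjusted p = 0.413). Control replicate 3 was the highest library, and without it LSR had -0.46.

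Among 18 other nutrient and ion transporters, 0 were called, 4 had an unadjusted p under 0.05 and the median was 0.05. SLC22A8, an organic anion transporter, had 9.40 and 3.82 CPM in sevoflurane replicates 2 and 3, against 1.46 and 0 CPM in control replicates 2 and 3, which are 110, 45, 15 and 0 counts. Its log2 fold change was 3.03 (SE 0.87, adjusted p = 0.24), and leaving out control replicate 3, sevoflurane replicate 2 or sevoflurane replicate 3 gave 2.16, 2.27 or 3.55. Without control replicate 2 the remaining control is at 0, and no fold is given. Each of these fits has a single library in a group, so no call is given for them. Marker transcripts of meningeal and perivascular fibroblasts stood in a similar order over the libraries, as given with the marker lists, and their part in the SLC22A8 values was not tested. SLC39A10, a zinc importer, had 272.2 and 260.2 CPM after sevoflurane, against 217.4 and 220.0 CPM in controls (0.28, SE 0.12, adjusted p = 0.457).

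Of 6 other efflux pumps, 0 were called, 1 had an unadjusted p under 0.05, and the median was -0.15. ABCC1, multidrug resistance protein 1, had 27.1 and 24.4 CPM in sevoflurane replicates 2 and 3, against 20.3 and 21.1 CPM in control replicates 2 and 3 (0.32, SE 0.19, adjusted p = 0.657). ABCA2, a lipid transporter abundant in oligodendrocytes, had 472.1 and 452.6 CPM after sevoflurane, against 558.6 and 663.6 CPM in controls (-0.40, SE 0.12, adjusted p = 0.28), and was called lower without control replicate 2 (-0.52, adjusted p = 0.0269 by edgeR's quasi-likelihood test). ABCC1 and ABCG2, both drug efflux pumps, thus lay on opposite sides of control, neither of them called.

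The 25 other endothelial identity genes gave 0 calls, 3 with an unadjusted p under 0.05, a median log2 fold change of -0.04 and values from -0.99 to 1.05. PODXL, a sialomucin of the luminal surface that neurons also express, had 123.9 and 147.0 CPM in sevoflurane replicates 2 and 3, against 104.4 and 105.8 CPM in control replicates 2 and 3 (0.37, SE 0.14, adjusted p = 0.401), with 0.24 when sevoflurane replicate 3 was left out. PTPRB is the vascular endothelial phosphatase that acts on TIE2 and VE-cadherin, and had 94.1 and 83.7 CPM after sevoflurane, against 151.1 and 105.0 CPM in controls (-0.53, SE 0.18, adjusted p = 0.341). As for ABCG2, control replicate 2 was the highest library. PTPRB had -0.76 without control replicate 3 and -0.24 without control replicate 2. Of 2 well-known endothelial genes named after their values were seen, the VEGF receptor KDR had 39.0 and 34.7 CPM after sevoflurane, against 39.1 and 36.7 CPM in controls. The clotting factor carrier VWF had 61.5 and 19.3 CPM after sevoflurane, against 30.9 and 41.0 CPM in controls, so its sevoflurane libraries were the highest and the lowest of the 4.

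The angiopoietin and VEGF ligands act on TIE2 and on the VEGF receptors. Of 6 tested, 0 were called and 0 had an unadjusted p under 0.05, with a median of 0.29. ANGPT2, which can oppose ANGPT1 at TIE2, had 7.26 and 10.9 CPM in sevoflurane replicates 2 and 3, against 4.10 and 6.76 CPM in control replicates 2 and 3 (0.76, SE 0.36, adjusted p = 0.554). Its value was 0.43 without control replicate 2 or sevoflurane replicate 3 and 1.15 without control replicate 3. ANGPT1, named after its values were seen, had 18.5 and 17.8 CPM after sevoflurane, against 26.5 and 11.9 CPM in controls, with both sevoflurane values inside the control range.

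VEGFA, the main vascular growth and permeability factor, had 44.9 and 192.8 CPM in sevoflurane replicates 2 and 3, against 44.1 and 77.8 CPM in control replicates 2 and 3. Sevoflurane replicate 3 alone stood high, sevoflurane replicate 2 was level with control replicate 2, and the log2 fold change of 0.97 (SE 0.53, adjusted p = 0.623) became -0.44 without sevoflurane replicate 3. Without sevoflurane replicate 2 it was 1.67, a value that rests on sevoflurane replicate 3 alone in its group.

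Wnt and norrin signals induce barrier properties in brain endothelium, and 0 of 14 genes of this pathway were called, with 1 at an unadjusted p under 0.05 and a median of 0.04. The receptor FZD4 had 48.4 and 45.7 CPM in sevoflurane replicates 2 and 3, against 41.9 and 32.2 CPM in control replicates 2 and 3 (0.34, SE 0.18, adjusted p = 0.6), with 0.17 without control replicate 3 and 0.54 without control replicate 2. Its co-receptor LRP5 had 27.1 and 23.9 CPM after sevoflurane, against 35.4 and 37.5 CPM in controls (-0.52, SE 0.17, adjusted p = 0.338). The receptor and its co-receptor, named for the 2 smallest p of this list, thus stood on opposite sides of control, neither of them called. Both sevoflurane libraries lay below both controls for 3 of the 14, LRP5, LRP6 and TSPAN12, and above for FZD4 alone. Over all genes, 20.4% lay below and 20.8% above.

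Among 5 genes of caveolae and fenestrations 0 were called, 0 had an unadjusted p under 0.05 and the median was 0.05. CAV1, the caveolar coat protein, had 12.1 and 10.6 CPM in sevoflurane replicates 2 and 3, against 17.3 and 14.2 CPM in control replicates 2 and 3 (-0.47, SE 0.24, adjusted p = 0.576). PLVAP, the diaphragm protein of fenestrated vessels that mature barrier endothelium largely lacks, had 7.35 and 7.04 CPM after sevoflurane, against 5.56 and 5.57 CPM in controls (0.37, SE 0.31, adjusted p = 0.772). Of the 4 leukocyte adhesion genes, SELE and SELP failed the filter, with no reads in at least 1 library each, and ICAM1 and VCAM1 were not called, nor did either have an unadjusted p under 0.05. ICAM1 had 6.07 and 1.27 CPM after sevoflurane, against 2.54 and 0.663 CPM in controls, and VCAM1 had 4.19 and 2.38 CPM after sevoflurane, against 5.07 and 0.928 CPM in controls. The groups overlapped for both genes.

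Of 10 vascular basement membrane genes, 0 were called, 2 had an unadjusted p under 0.05 and the median was 0.03. The laminin chains LAMA4 and LAMA5, both found under brain endothelium, stood on opposite sides of control. LAMA4 had 64.6 and 72.3 CPM in sevoflurane replicates 2 and 3, against 54.5 and 42.7 CPM in control replicates 2 and 3 (0.49, SE 0.17, adjusted p = 0.347). LAMA5 had 48.7 and 42.9 CPM after sevoflurane, against 66.6 and 64.4 CPM in controls (-0.52, SE 0.15, adjusted p = 0.253).

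**Figure D4:**
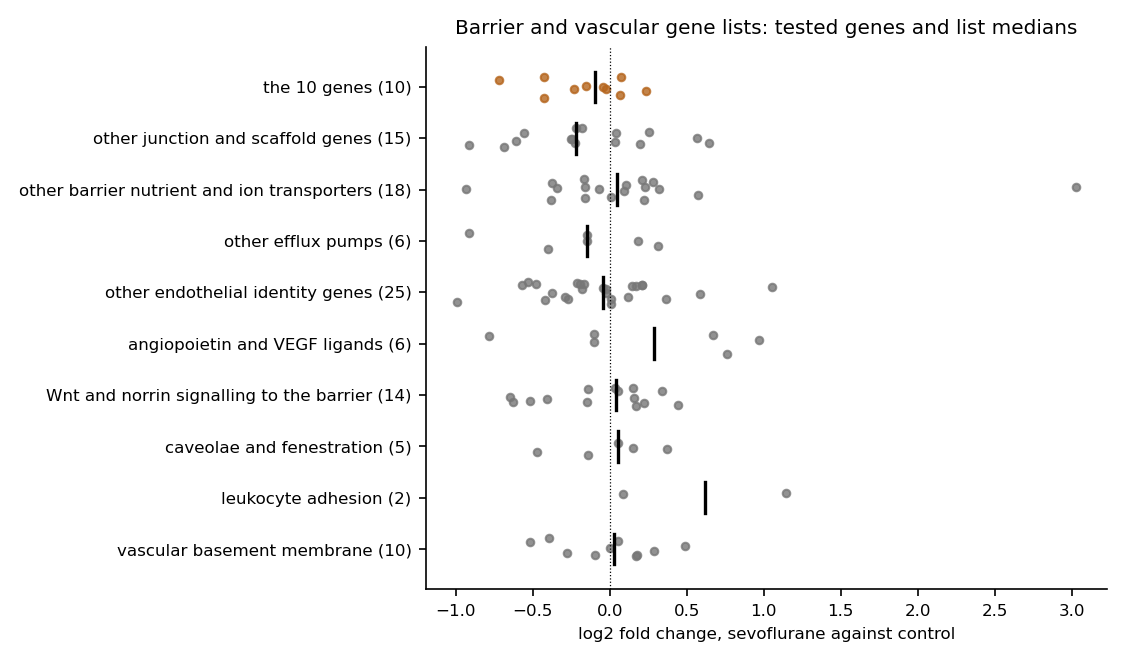
Log2 fold change, sevoflurane against control (horizontal axis), of the 10 members in orange and of the tested genes of 9 wider lists in grey, with the number of genes in brackets and a black bar at each median. Medians lie between -0.22 (junction and scaffold) and 0.62 (leukocyte adhesion, 2 genes), and the point at 3.03 is SLC22A8.

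Markers of other cells were summed per library over 9 lists. Neighbours of the endothelium on the vessel, the pericytes and smooth muscle cells, had 544.1 and 493.5 CPM in sevoflurane replicates 2 and 3, against 547.6 and 551.8 CPM in control replicates 2 and 3, with 0 of 14 tested genes called and 2 at an unadjusted p under 0.05. RGS5, their most abundant marker, had 263.5 and 255.5 CPM after sevoflurane, against 256.2 and 275.8 CPM in controls. Mature oligodendrocyte markers had 8 of 8 genes lower, with sums of 1414.7 and 2137.5 CPM after sevoflurane, against 5446 and 9691 CPM in controls. Astrocyte markers had 1 of 9 lower, GFAP, and 3 at an unadjusted p under 0.05, with sums of 5843 and 5936.5 CPM after sevoflurane, against 9732 and 8088 CPM in controls. GFAP was then left out, a choice made after seeing the data. The other 8 summed to 4312 and 4038 CPM after sevoflurane, against 4482 and 4211 CPM in controls, and the groups overlapped. Most of that sum came from SLC1A2 and SLC1A3, whose groups overlapped. Of the 9, both sevoflurane libraries lay below both controls for 6 and above for 1, against 20.4% and 20.8% of all genes. Besides GFAP, the 6 include KCNJ10, AQP4 and GJA1, named after their values were seen. Their log2 fold changes were -0.62, -0.49 and -0.40, and none of them was called. Microglia and macrophage markers had 1 of 8 lower, CX3CR1, with sums of 256.6 and 333.7 CPM after sevoflurane, against 365.2 and 326.9 CPM in controls, and 5 of 8 had an unadjusted p under 0.05. The share of all genes tested at that p was 9.92%. Both sevoflurane libraries lay below both controls for 4 of these 8 markers and above them for 3, against 20.4% and 20.8% of all genes. The 3 above, named after their values were seen, had log2 fold changes of 1.25 for CD163 (adjusted p = 0.154), 0.66 for C1QA (0.331) and 0.67 for C1QB (0.391) by edgeR's quasi-likelihood test and were not called.

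Meningeal and perivascular fibroblast markers had 1 of 9 higher, SLC6A13, with 4 at an unadjusted p under 0.05, 8 positive values and a median log2 fold change of 0.99, and with sums of 562.8 and 213.6 CPM in sevoflurane replicates 2 and 3, against 237.9 and 123.6 CPM in control replicates 2 and 3. SLC13A4, named after its values were seen, had 116.6 and 24.5 CPM after sevoflurane, against 12.3 and 0.53 CPM in controls, and was not called. SLC6A13 was not called when control replicate 2, control replicate 3 or sevoflurane replicate 2 was left out, nor by limma-voom (adjusted p = 0.0668). Neuron markers had 0 of 7 called, 0 at an unadjusted p under 0.05, and sums of 4707 and 4599.9 CPM after sevoflurane, against 3803 and 4909 CPM in controls. Choroid plexus markers summed to 19.3 and 14.8 CPM after sevoflurane, against 12.8 and 11.5 CPM in controls, with 0 of 4 called, 1 at an unadjusted p under 0.05, and TTR, KCNJ13, FOLR1 and OTX2 at 0 in at least 1 library. Blood leukocyte and platelet markers summed to 15.3 and 11.3 CPM after sevoflurane, against 10.7 and 10.5 CPM in controls, with 0 of 4 called and 0 at an unadjusted p under 0.05. Red blood cell markers, mainly HBB, summed to 19.8 and 37.2 CPM after sevoflurane, against 49.7 and 21.7 CPM in controls, with 0 of 2 called and 0 at an unadjusted p under 0.05. ABCG2, MFSD2A, TEK, ABCB1 and CDH5 had sevoflurane below control, like the oligodendrocyte sum and GFAP, an order shared by 20.4% of all genes tested. The highest library was control replicate 3 for the oligodendrocyte sum and CDH5. It was control replicate 2 for GFAP, ABCG2, MFSD2A, TEK and ABCB1. The part of other cell types in the members' values was not tested.

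**Figure D5:**
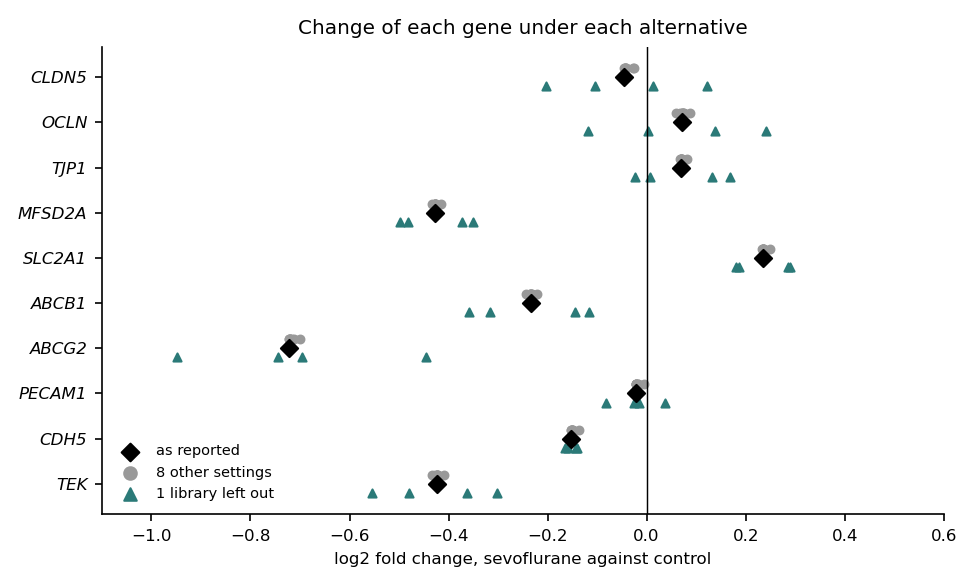
Log2 fold change of each gene, sevoflurane against control (horizontal axis), as reported (black diamonds), under 8 other settings (grey circles) and with 1 library left out (green triangles). ABCG2 ranges from -0.95 to -0.45, all below 0, whereas CLDN5, OCLN, TJP1 and PECAM1 have values on both sides of 0.

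Across 12 alternatives, 6 of the members kept their sign under every setting run, namely MFSD2A, SLC2A1, ABCB1, ABCG2, CDH5 and TEK. These are the members whose groups did not overlap. For such genes, leaving out a library cannot turn the sign at a fixed scaling. The remaining settings kept every library and barely moved the estimates. The kept sign therefore restates the separation, seen in 41.2% of all genes, and is not a separate test of it. The order of the libraries differed between genes. Control replicate 2 was the highest library for 4 members, sevoflurane replicate 3 for 3 and control replicate 3 for 3, and sevoflurane replicate 2 was the highest for 0.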

How the data were processed

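The deposited values are raw read counts per gene, 1 column per library, made by the authors. Alignment used HISAT2, per the submitters' processing notes, and its version is not stated. The sources used here do not give the counter, the build, the annotation or the strand setting, so reads of overlapping, antisense or near-identical genes cannot be told apart.

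The members and lists were chosen with earlier results of these data known. List genes were matched by symbol (184, members included), RefSeq gene number (4) or older symbol (1), and 2 were not matched. Of 33618 genes, 8051 had no count. The main fit was made with edgeR 4.0.16 under R 4.3.3 (filterByExpr with 10 counts and 15 in total, TMM, quasi-likelihood F test, group as the only term). Alternatives were other scalings and filters, DESeq2 1.42.0, limma-voom (limma 3.58.1), a block on the replicate number, a likelihood ratio test, and leaving out each library. No pair of replicates agreed within sampling noise. Named list genes are, per barrier list, the called ones, the 2 with the smallest p and those at 1 or more (log2) without overlap, and, per marker list, the called ones and the most abundant; 1 single-gene result is not reported here. In counts simulated for this comparison over 17693 genes, 53% of genes changed 2-fold and 91% of those changed 4-fold were called, with 8 false calls. The changed genes were drawn above a floor on mean counts. Noise followed the average trend of spread with level, with no library set apart as control replicate 3 was. These shares may therefore not hold for the real libraries or for genes with few counts.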

Additional observations from a re-analysis of the deposited data

How the results depend on the processing

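Of 120 member fold changes under 12 alternatives, 5 changed sign. For members whose groups did not overlap, leaving out a library could not turn the sign at a fixed scaling. With 1 library left out the sign changed for CLDN5 (range -0.20 to 0.12; 0.013 without sevoflurane replicate 2), OCLN (-0.12 to 0.24), TJP1 (-0.024 to 0.17) and PECAM1 (-0.081 to 0.036). Members called numbered 1 (ABCG2) by the likelihood ratio test, 1 with the replicate number as a block, and 0 to 1 with a library left out (1 without control replicate 3). The numbers were not shown to pair the libraries (same-numbered deviations correlated at 0.0090 over genes). With the block ABCG2 had adjusted p = 0.0243, and SLC16A1, SLC22A8, SLC19A3 and VEGFA were called among the wider genes. Genes called in all, 106, became 60 with no filter, 279 by DESeq2, 441 by the likelihood ratio test, 511 with the block, and 145 to 283 with a library left out. The members' median, -0.10, lay between -0.16 and -0.082 with a library left out. All 10 members passed the filter, so leaving out failing members gave no other value. The median level relative to endothelial genes, -0.05, was 0.045 over PECAM1, CDH5 and TEK, and -0.16 to 0.0037 with a library left out. Of 60 single relative levels, 56 moved by less than 1 SD between replicates. With 2 libraries a group, leaving out a library cannot move a level further than this, so those settings could not differ. Over PECAM1, CDH5 and TEK the divisor changed for every member, so all 10 shifted by the same amount. Only the 4 with the smallest SD between replicates, TJP1, MFSD2A, SLC2A1 and CDH5, thereby moved by more than 1 SD. PECAM1, CDH5 and TEK were there divided by a sum that holds them. The cause of the other differences was not tested. With 2 libraries a group, a change near 2-fold could be missed.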
